A study of Mus musculus with 577 samples.

Results

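The enzymes and cofactors that write, copy and remove DNA methylation were followed through every cell type and method of a study of single mouse cells taken from ovary sections. The set holds 9 genes of the 22060 protein-coding genes counted: the maintenance methyltransferase Dnmt1 and its partner Uhrf1, the de novo methyltransferases Dnmt3a and Dnmt3b with their cofactor Dnmt3l, the dioxygenases Tet1, Tet2 and Tet3, and Dppa3. They were taken by gene symbol from a list chosen with earlier results of these data known, and all 9 had reads in the oocytes.

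The study compared a lysis buffer called DRaqL, made to free RNA from alcohol-fixed cells cut out by laser capture microdissection (LCM), with other ways of making single-cell cDNA, over 577 libraries. Ovaries came from 8-week-old female mice and were snap-frozen, cut at 15 μm and stained with cresyl violet, and an oocyte library is a slice of 1 oocyte. Oocytes were labelled as from primary follicles or from secondary-to-early antral follicles (here later follicles). There were 14 and 30 libraries of these stages by DRaqL-SC3-seq, which counts reads near the 3′ end. SMART-Seq v4 gave 7 and 11, DRaqL followed by SMART-Seq v4 gave 6 and 9, and sections fixed in formalin for 24 h and lysed with a protease (DRaqL-Protease-Smart-seq2) gave 5 and 7. Mouse embryonic stem cells (mESCs), cultured in 2iLIF, were either freshly dissociated (45) or cut by LCM from sections of frozen cell blocks (36). Granulosa cells, the somatic cells of the follicle, were cut as neighboring (touching the oocyte, 31 by DRaqL-SC3-seq) or non-neighboring (26), and also in 7 other method sets. No label names the mouse of a cell, so a group of single cells counted as 1 sample. Such groups are compared by the size of their difference beside the scatter of the cells, and no p-value is given. A gene was called higher or lower when the group means of log2 (RPM+1) differed by at least 1, a 2-fold difference, RPM being the usual scaling to the total of protein-coding reads in a library.

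DNA methylation in mammals sits mostly on cytosines followed by guanine (CG). Dnmt1 copies the marks after replication at sites that Uhrf1 finds, Dnmt3a and Dnmt3b set new marks, and Dnmt3l has no catalytic activity of its own but helps Dnmt3a. The growing mouse oocyte is known for laying down its methylome, imprints included, after birth and without dividing, and it needs Dnmt3a and Dnmt3l for this. Tet enzymes oxidise the methyl group, and Tet3 is the one stored in the egg for the zygote. Dppa3 (Stella) is a maternal protein that keeps Uhrf1 out of the oocyte nucleus and guards the maternal genome against Tet3 after fertilisation.

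Depth ranged from 12748 to 17506401 reads over the series, from 873206 to 2338750 in primary and from 1309694 to 1887918 in later oocytes by DRaqL-SC3-seq. The oocyte and mESC labels held against their markers, and the granulosa labels held less cleanly. The 14 listed oocyte genes summed to 3720 to 21876 RPM (median 9447) in primary and 18078 to 45666 RPM in later oocytes, and the 5 pluripotency genes to 813 to 2630 RPM in LCM mESCs. In granulosa cells by DRaqL-SC3-seq the oocyte genes reached 17299 RPM in neighboring (median 2943) and 14355 RPM in non-neighboring cells (median 64.2). Both highest values lay within the range of primary oocytes. Granulosa markers were present in oocyte slices too, with a median of 587 RPM in primary and 155 RPM in later oocytes (1574 to 14608 RPM in neighboring granulosa cells), and in DRaqL-SMART-Seq v4 primary oocytes the markers Obox2, Obox5 and Oog1 were at 0. RNA of adjacent cells can be carried along by LCM, and its part in any value below was not tested. Of the 14 primary oocytes by DRaqL-SC3-seq, 10 formed 5 pairs (replicates 2 and 10, 3 and 11, 4 and 12, 5 and 13, 6 and 14) whose deviations from the group mean correlated at 0.66 to 0.95, against at most 0.046 for any other pair, so only 9 distinct profiles may be present. Counts within a pair differed by more than sampling noise (chi-square per degree of freedom 2.42 to 28.5), so all 14 were kept and averaged values are given beside the results.

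The start of Dnmt1 is shown first because the gene (ENSMUSG00000004099, chr9:20907209-20959888 on the minus strand, GRCm38) has 3 annotated protein-coding transcripts that differ in their first exon, and the reads below bear on which start was used. Each RefSeq promoter window (GRCm38.p6) runs from 250 bases before to 50 bases after a start, is written 5′ to 3′ on the minus strand, and has each CG in capitals.
Dnmt1-202 start, chr9:20959839-20960138: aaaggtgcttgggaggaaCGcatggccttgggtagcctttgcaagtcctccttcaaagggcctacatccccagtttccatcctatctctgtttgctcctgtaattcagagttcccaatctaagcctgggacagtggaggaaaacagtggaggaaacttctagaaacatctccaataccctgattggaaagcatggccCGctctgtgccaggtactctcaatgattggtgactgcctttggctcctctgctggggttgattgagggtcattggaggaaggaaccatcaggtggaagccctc
Dnmt1-201 start, chr9:20952930-20953229: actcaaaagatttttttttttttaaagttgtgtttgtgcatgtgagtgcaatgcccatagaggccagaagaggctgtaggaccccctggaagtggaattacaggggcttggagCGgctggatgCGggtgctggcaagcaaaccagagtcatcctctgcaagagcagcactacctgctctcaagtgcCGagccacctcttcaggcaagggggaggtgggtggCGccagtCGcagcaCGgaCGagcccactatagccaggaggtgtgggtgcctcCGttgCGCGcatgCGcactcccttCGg
Dnmt1-203 start, chr9:20952574-20952873: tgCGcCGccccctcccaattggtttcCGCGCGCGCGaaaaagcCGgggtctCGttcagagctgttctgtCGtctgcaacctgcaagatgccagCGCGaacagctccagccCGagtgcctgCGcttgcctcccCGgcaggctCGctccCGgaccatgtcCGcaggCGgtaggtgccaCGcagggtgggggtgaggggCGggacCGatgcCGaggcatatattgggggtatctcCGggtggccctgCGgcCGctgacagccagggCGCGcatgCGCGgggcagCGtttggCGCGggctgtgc
The windows held 2, 12 and 33 CG in that order. CG reads alike on both strands, 94.6% of 32851 RefSeq promoter windows held at least 1, the median was 7, and 14.1%, 60.4% and 91.4% of windows held fewer than these. The upstream start is thus the CG-poor one of the 3.

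Reads over exons came from amplified cDNA sequenced along its length with Y-shaped adapters, still with most reads towards the 3′ end, at 6200968 to 16296631 reads a library, in 5 oocytes and 10 mESCs (fresh and LCM together, since labels of the 2 kinds appeared to be exchanged). Dnmt1 had 26997 reads in the oocytes and 8712 in the mESCs, with a read on 35 and on 8 of its 41 exon stretches. The first exon of Dnmt1-202 (chr9:20959733-20959888) held 12 reads in oocytes, 2, 4, 4, 2 and 0 by library, and 0 in all 10 mESCs. The first exons of Dnmt1-201 (chr9:20952708-20952979) and Dnmt1-203 (chr9:20951846-20952623) held 0 reads in both cell types. In 4 of 5 oocytes, then, the only annotated first exon with reads was the upstream one beside the CG-poor window printed above. These are few reads, and with 8 covered stretches the mESC libraries could not show which start they used. Spliced reads covered 30 Dnmt1 junctions with 5285 reads in the oocytes and 5 with 1927 reads in the mESCs.

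**Figure D1:**
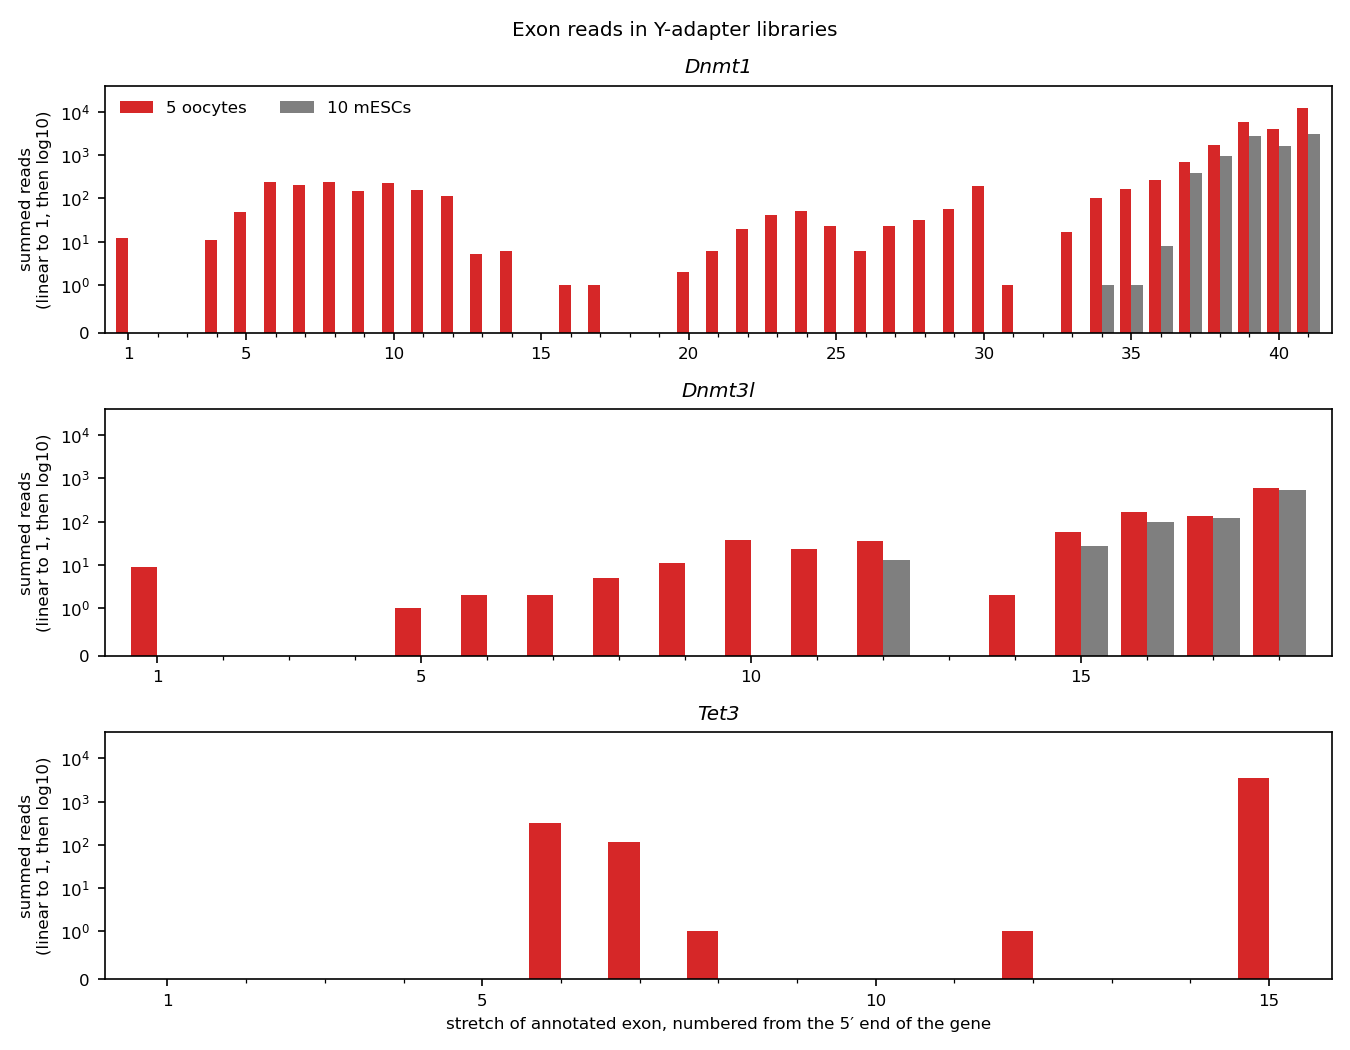
Summed reads (vertical axis, log scale with 0) on each exon stretch, numbered along the gene (horizontal axis), for Dnmt1, Dnmt3l and Tet3. The 5 oocytes, all of later follicles, are in red and 10 mESCs in grey. Oocyte reads lie on 35 of 41 Dnmt1 stretches and mESC reads on 8, and Tet3 has 4026 oocyte reads and 0 mESC reads.

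Tet3 was the sharpest case in these libraries, with 4026 reads in the oocytes and 0 in each of 10 mESCs. The last exon of Tet3-202 (chr6:83362373-83369825), a coding transcript, took 3596 of the oocyte reads, with 841, 961, 637, 640 and 517 by library. The last exon of the short, non-coding Tet3-201 (chr6:83398439-83398617) held 34, 35, 12, 25 and 10. Both ends thus had reads in 5 of 5 oocytes. The exons are 7453 and 179 bases long, in the order named, so raw reads do not rank the ends. All counts here are raw reads of 5 and 10 libraries. Tet1 had more in the mESCs, with 65 oocyte and 4232 mESC reads, as did Dnmt3b with 350 and 2922. So did Tet2 with 12 and 348, at a median of 0.5 reads over the mESCs. Of these mESC Tet2 reads, 315 lay on a stretch annotated as the retained-intron transcript Tet2-210, in 3 libraries. Uhrf1 had 5833 oocyte and 499 mESC reads, Dnmt3a 2678 and 338, and Dppa3 27049 and 3875. Dnmt3l had 1084 oocyte reads on 14 of 18 stretches, with none in 1 of 5 oocytes, and 789 mESC reads on 5 stretches, of which 1 library held 527.

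Between follicle stages, Dnmt1, Dnmt3l and Tet3 were called higher in oocytes of later follicles by all 4 methods. So were 10.8% of the 16778 genes measured in all 4, the background against which 3 of 9 members is to be read. By DRaqL-SC3-seq 5 members passed 2-fold, 4 higher (Dnmt1, Dnmt3l, Uhrf1, Tet3) and 1 lower (Tet2), where 21.2% of all genes were higher and 9.88% lower. SMART-Seq v4 gave 4 higher and 0 lower (background 24.8% and 11.9%), DRaqL-SMART-Seq v4 gave 6 and 1 (26.3% and 16.6%), and formalin-fixed sections gave 3 and 1 (20.9% and 19%). Among genes with a mean of at least 2, as most members have, 48.6%, 47.9%, 57.2% and 52% passed 2-fold either way in the 4 methods, and 0 members were lower in all 4 (2.96% of genes). No fit with replicate animals was possible for these cells. Per the study's text the methods were run on sections of a single ovary, so agreement between methods is not agreement across animals.

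**Figure D2:**
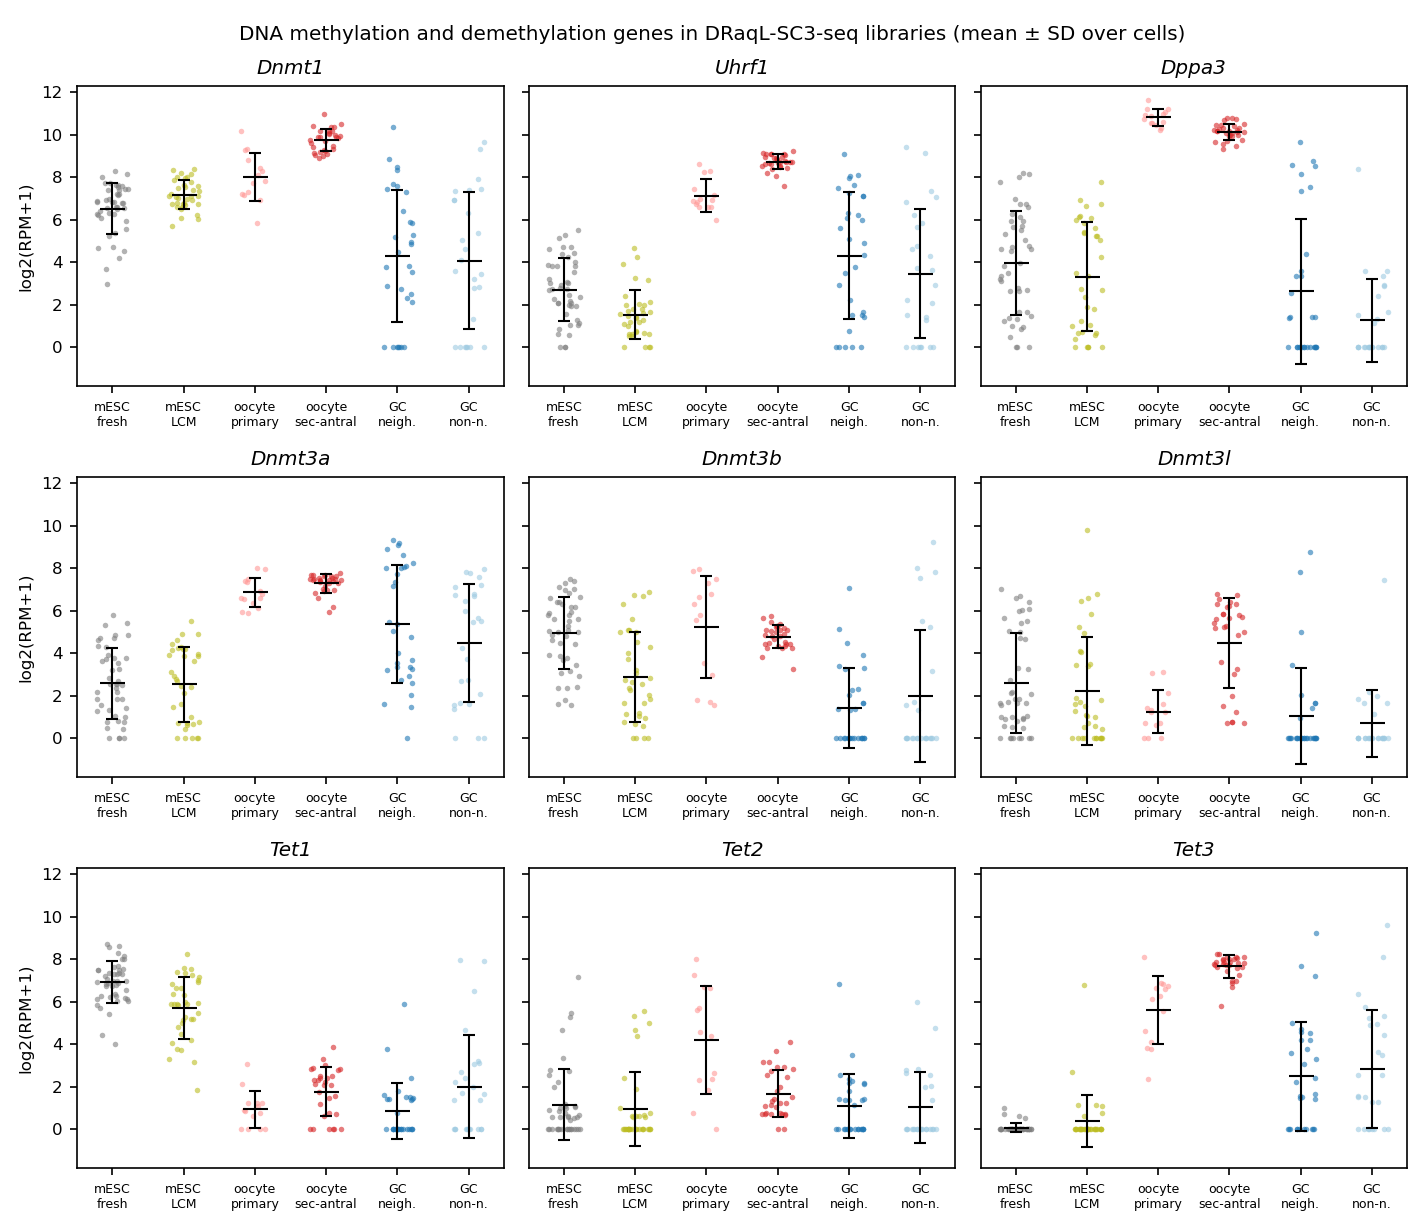
Log2 (RPM+1) of the 9 genes (1 panel each) in single DRaqL-SC3-seq libraries of 6 groups, with points for libraries and bars for mean ± SD over 14 primary and 30 later oocytes, 45 fresh and 36 LCM mESCs, and 31 neighboring and 26 non-neighboring granulosa cells. Dppa3 lies above 9 in each oocyte, and Tet1 is highest in the mESCs.

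Among maintenance genes, Dnmt1 by DRaqL-SC3-seq was 5.86 (lowest), 7.95 (median) and 10.14 (highest) on the log2 (RPM+1) scale in primary oocytes and 8.90, 9.86 and 10.98 in later ones. The groups overlapped, with 8 of 30 later oocytes above every primary one and 11 of 14 primary oocytes below every later one. The means, 8.02 ± 1.13 (SD, n = 14) and 9.75 ± 0.52 (n = 30), differed by 1.73, a 3.31-fold difference on this scale, and by 1.43 with the paired profiles averaged. By SMART-Seq v4 it was 6.63, 8.31 and 9.59 against 10.05, 11.28 and 11.49, and the groups did not overlap. DRaqL-SMART-Seq v4 gave 0, 7.98 and 9.46 against 11.21, 11.79 and 12.23, again without overlap. The differences in means were 2.81 and 5.06, the latter 3.72 without the primary library at 0. In formalin-fixed sections the 5 primary oocytes were at 8.57, 5.98, 9.43, 11.25 and 10.89, the 7 later ones at 11.18 to 12.78 (median 11.89), a difference of 2.76 with overlap at the edge.

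Uhrf1, which recruits Dnmt1 to hemimethylated DNA, depended more on the method. By DRaqL-SC3-seq it was 5.99, 6.91 and 8.62 in primary and 7.57, 8.73 and 9.21 in later oocytes, with 22 of 30 later oocytes above every primary one and a difference of 1.58 (2.99-fold). By SMART-Seq v4 the means of 9.07 and 9.25 differed by 0.18. The difference was 1.07 by DRaqL-SMART-Seq v4 and 0.95 in formalin-fixed sections, so 2 of 4 methods passed 2-fold. The log2 ratio of summed reads by DRaqL-SMART-Seq v4 was 0.37, below 2-fold. The 16 serial sections described below, also of later follicles and by DRaqL-SC3-seq, were at 5.95 to 7.56, below each of the 30 later oocytes and with a mean (6.58 ± 0.49) under the primary one (7.13 ± 0.76).

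Dppa3 lay high in both stages and never passed 2-fold. By DRaqL-SC3-seq it was 10.23, 10.80 and 11.64 in primary oocytes and 9.32, 10.16 and 10.76 in later ones, with 19 of 30 later oocytes below every primary one. The later mean was lower by 0.66 by DRaqL-SC3-seq and SMART-Seq v4 (differences of −0.66 in each), by DRaqL-SMART-Seq v4 it differed by −0.77, and in formalin-fixed sections by −0.03. Scaling to the added ERCC spike-in RNA was done for the 3 methods with spike-in counts at hand. There, genes with a mean of at least 2 moved by a median of 1.48, 2.31 and 1.44 towards later oocytes. The Dppa3 differences became 1.16, 2.35 and 1.83, so the sign of this small difference turned with the shift that all these genes shared. The annotated copy Dppa3-ps took 4.87% of the reads of both genes in later SMART-Seq v4 oocytes and 11.4% with DRaqL, so some Dppa3 reads may be shared with it.

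**Figure D3:**
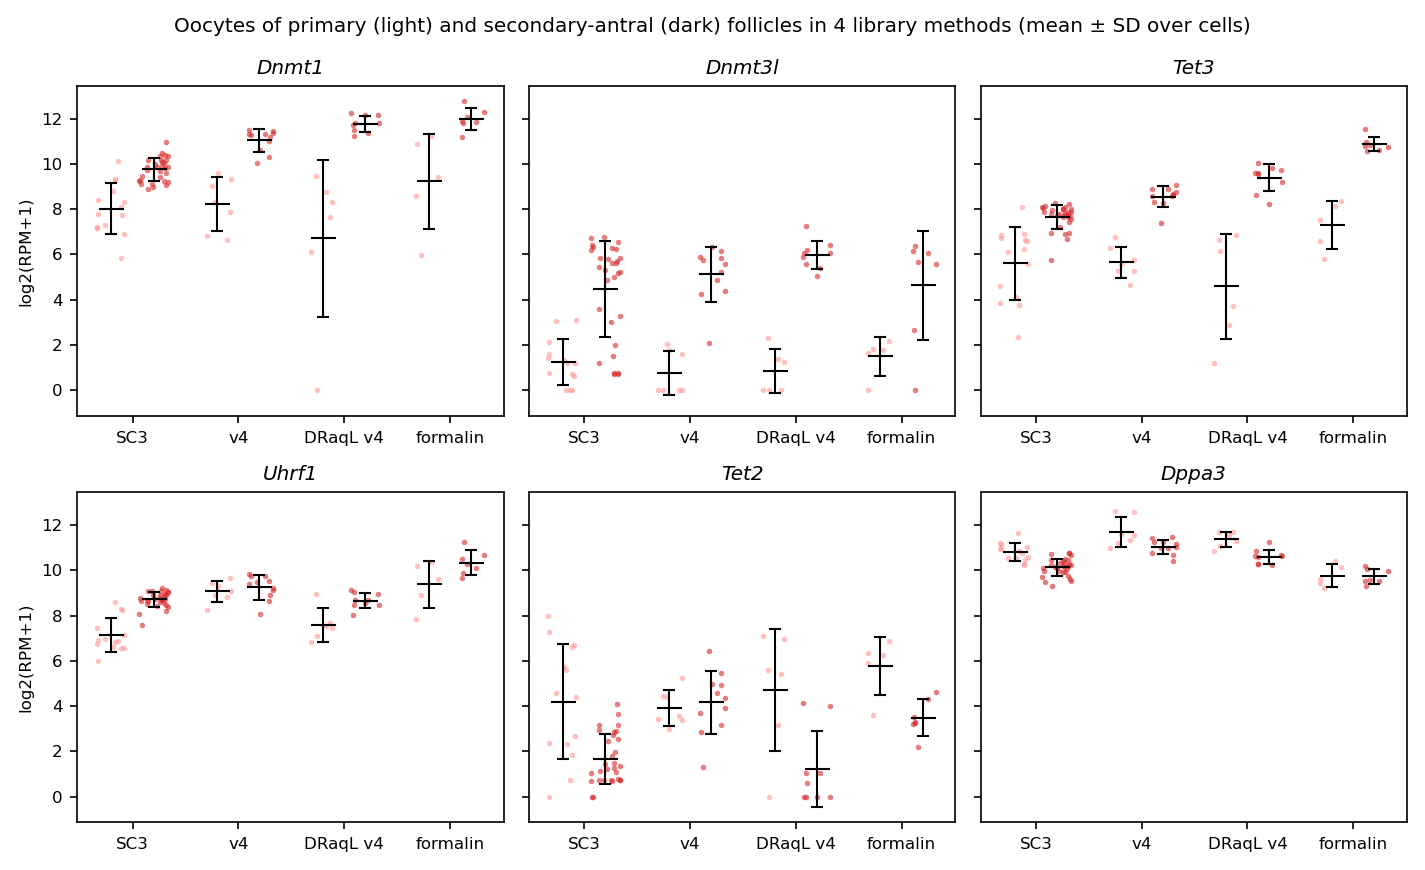
Log2 (RPM+1) of Dnmt1, Dnmt3l, Tet3, Uhrf1, Tet2 and Dppa3 (1 panel each) in single oocytes of primary (light) and later (dark) follicles by 4 methods, with bars for mean ± SD over 14 and 30, 7 and 11, 6 and 9, and 5 and 7 libraries. Dnmt1, Dnmt3l and Tet3 lie at least 2-fold higher in the mean of later oocytes by each method, and the Dppa3 means differ by less than 2-fold.

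Of all members, the de novo cofactor Dnmt3l differed most between stages in 3 of 4 methods, all but the formalin-fixed sections. By DRaqL-SC3-seq it was 0, 1.22 and 3.12 in primary oocytes, of which 11 of 14 had a read, and 0.69, 5.36 and 6.78 in later ones. Later oocytes were spread widely, and 22 of 30 lay above every primary oocyte. The difference of 3.25 (9.50-fold) was 3.38 with paired profiles averaged. By SMART-Seq v4 the groups did not overlap, at 0, 0 and 2.04 against 2.10, 5.57 and 6.34, a difference of 4.35, nor by DRaqL-SMART-Seq v4, at 0, 0.63 and 2.31 against 5.05, 6.05 and 7.23, a difference of 5.16. In formalin-fixed sections the primary oocytes were at 1.66, 1.81, 2.18, 1.78 and 0 and the later ones at 0 to 6.38 (median 5.66), a difference of 3.15, with a read in 6 of 7 later oocytes.

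The catalytic de novo enzymes differed less. Dnmt3a was 5.87, 6.69 and 8.02 in primary and 5.92, 7.43 and 7.78 in later oocytes by DRaqL-SC3-seq, a difference of 0.43, and the other methods gave 0.74, 1.02 and 0.23. Only DRaqL-SMART-Seq v4 passed 2-fold, and there the log2 ratio of summed reads was 0.48. Dnmt3b was 1.58, 6.05 and 7.94 in primary and 3.26, 4.84 and 5.76 in later oocytes, so the primary oocytes spread more (SD 2.40 and 0.56) while the means differed by −0.46. The other methods gave 1.22, 0.67 and −0.03 for Dnmt3b, with no common direction.

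Among the demethylating enzymes, Tet3 was higher and Tet2 mostly lower in later oocytes. Tet3 by DRaqL-SC3-seq was 2.36, 6.18 and 8.09 in primary and 5.77, 7.79 and 8.25 in later oocytes, a difference of 2.05 (4.14-fold), and 2.28 with paired profiles averaged. The other 3 methods separated the stages without overlap. By SMART-Seq v4 Tet3 was 4.64, 5.57 and 6.75 against 7.37, 8.61 and 9.06 (difference 2.91), and by DRaqL-SMART-Seq v4 1.21, 4.94 and 6.84 against 8.23, 9.62 and 10.06 (difference 4.81). In formalin-fixed sections the primary oocytes were at 6.60, 5.81, 8.34, 8.15 and 7.51 and the later ones at 10.59 to 11.53 (median 10.79), a difference of 3.59.

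Such separation was uncommon among all genes. Every later oocyte lay above every primary one in 2.93% of genes by SMART-Seq v4 and 5.03% by DRaqL-SMART-Seq v4, and in both Dnmt1, Dnmt3l and Tet3 were the 3 members among them. In formalin-fixed sections it was 2.77% of genes and only Tet3 of the members, and by DRaqL-SC3-seq, with the larger groups, 0.464% of genes and no member.

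Tet2 was 0, 4.48 and 8.00 in primary oocytes and 0, 1.29 and 4.10 in later ones by DRaqL-SC3-seq, and 8 of 14 primary oocytes lay above every later one. Its difference of −2.53 (5.78-fold lower in later oocytes) became −2.40 with paired profiles averaged. DRaqL-SMART-Seq v4 gave −3.51 (0, 5.52 and 7.10 against 0, 0.58 and 4.15). Formalin-fixed primary oocytes were at 5.89, 3.59, 6.87, 6.26 and 6.35 and later ones at 2.18 to 4.64 (median 3.29), a difference of −2.30. SMART-Seq v4 gave 0.24. With spike-in scaling the differences were 1.65, −1.11 and −0.39 in the 3 methods with spike-in counts, so the direction of Tet2 differed between methods. Tet1 stayed low, at 0, 0.88 and 3.05 in primary and 0, 2.11 and 3.87 in later oocytes, with differences of 0.82, 0.83, 1.93 and 0.97 in the 4 methods and a call in DRaqL-SMART-Seq v4 alone.

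With spike-in scaling, which includes the shift of all genes given above, the differences of Dnmt1 and Tet3 were larger. Per spike-in read, Dnmt1 differed by 4.58, 7.29 and 4.43 and Tet3 by 4.55, 7.10 and 5.10 by SMART-Seq v4, DRaqL-SMART-Seq v4 and in formalin-fixed sections. Spike-in reads had a median share of 5.08%, 7.76% and 12.7% in primary and 1.36%, 0.736% and 3.66% in later oocytes, so a primary slice gave fewer gene reads per spike-in read.

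In oocytes of 1 proestrus mouse, 8 were cut by LCM from an ovary and 14 grown ones were freshly dissociated from the other. Dnmt1 was 12.27, 12.70 and 13.30 in the LCM slices and 9.96, 10.75 and 11.46 in the dissociated oocytes, without overlap. Tet3 had means of 10.80 ± 0.28 (SD, n = 8) and 9.72 ± 0.64 (n = 14). Dnmt3l, the member most different between stages, was at 4.62 ± 2.24 and 5.79 ± 0.63, with 1 LCM slice at 0. Dppa3 was lower in the slices, 9.77 ± 0.21 and 10.66 ± 0.23, and Dnmt3a (7.96 and 6.58) and Uhrf1 (9.86 and 8.99) were higher. Tet1 was at 2.48 and 3.95, Tet2 at 3.39 and 2.08, and Dnmt3b at 4.93 and 5.19. Cutting, the lysis buffer, the cDNA amplification and the oocytes chosen differ together between these groups. Per the study, the dissociated oocytes were also handled in a cAMP analog. These parts cannot be told apart.

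Serial sections gave 2 libraries from each of 8 oocytes of later follicles. The median absolute difference in log2 (RPM+1) was smaller between sections of 1 oocyte (8 pairs) than between oocytes for 8 of 9 members, all but Tet1. The same was true of 69.2% of the 10716 genes with a mean of at least 2. Dnmt3l differed by 0.38 within and 0.77 between oocytes, Tet2 by 0.38 and 0.72, Uhrf1 by 0.33 and 0.53, and Dnmt1 by 0.21 and 0.31. The 16 sections spanned 4.70 to 7.57 for Dnmt3l, so these later oocytes differed among themselves in Dnmt3l more than in Dnmt1 (10.43 ± 0.31). Tet1 differed by 1.52 within and 1.40 between oocytes.

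**Figure D4:**
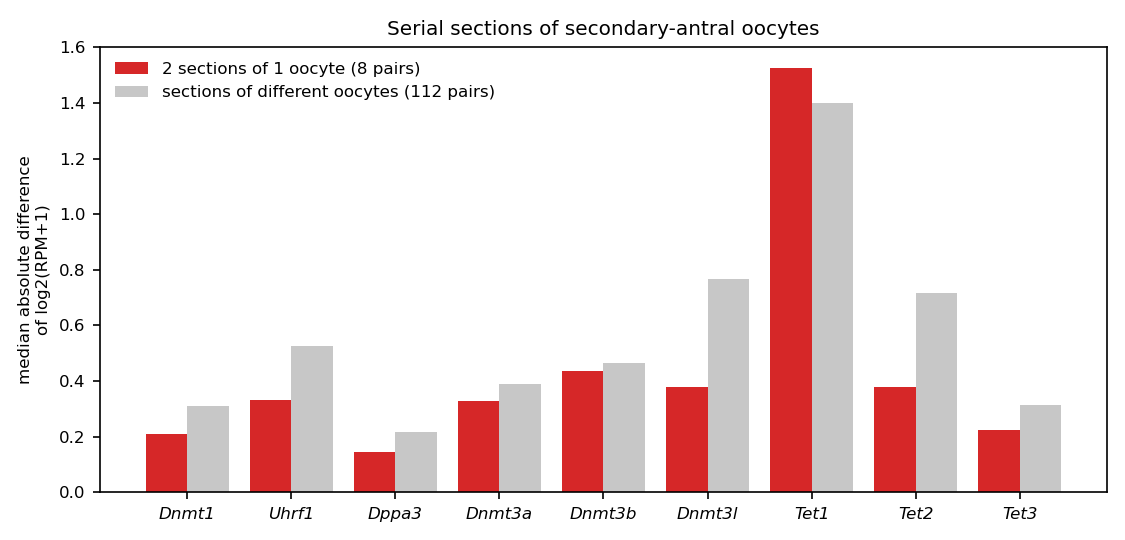
Bars from 0 give the median absolute difference in log2 (RPM+1) between 2 sections of 1 oocyte (8 pairs) and between sections of different oocytes for each gene. The bar within oocytes is the shorter for 8 of 9 genes, and Tet1 is the exception at 1.52 and 1.40.

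Against LCM mESCs, the 44 oocytes by DRaqL-SC3-seq (both stages weighted equally) were at least 2-fold higher in 7 members and lower in 1, Tet1, where 34.1% of genes were higher and 10.3% lower (68% either way among genes with a mean of at least 2). Dppa3 was at 9.32 to 11.64 (median 10.29) in oocytes and 0 to 7.76 (median 3.04) in mESCs, a 144-fold difference. Uhrf1 was at 5.99 to 9.21 and 0 to 4.65, an 84.4-fold difference, and Dnmt3a at 5.87 to 8.02 and 0 to 5.51, a 23.2-fold difference. For these 3 genes each of 44 oocytes lay above each of 36 mESCs, which 1.4% of genes did.

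Tet3 and Tet1 lay at opposite ends in these cells. Tet3 had means of 6.62 in oocytes and 0.39 in LCM mESCs (75.2-fold), with a read in 7 of 36 LCM and 4 of 45 freshly dissociated mESCs, and Tet1 had 1.34 and 5.70 (20.5-fold lower in oocytes). Dnmt1 was 3.28-fold and Dnmt3b 2.12 log2 units higher in oocytes, Tet2 1.97 higher, and Dnmt3l, at 2.86 and 2.20, was not called. For these last 2 genes the stages lay far apart: Dnmt3l was at 4.48 in later and 1.23 in primary oocytes, and Tet2 at 1.67 and 4.20 against 0.96 in LCM mESCs. Against freshly dissociated mESCs Uhrf1 was still 5.22 log2 units higher while Dnmt3b differed by 0.04, so the Dnmt3b call rested on which mESCs were used.

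LCM and freshly dissociated mESCs differed by 2-fold in 3 members, all lower after LCM, where 5.12% of genes were lower and 0.442% higher (10.4% either way among genes with a mean of at least 2). Dnmt3b was at 1.53, 5.07 and 7.49 in fresh and 0, 2.59 and 6.87 in LCM cells, a difference of −2.07. Tet1 was at 4.01, 6.95 and 8.72 against 1.86, 5.89 and 8.25, a difference of −1.21, and Uhrf1 means were 2.70 ± 1.49 and 1.52 ± 1.16. Dnmt1 means were 6.52 ± 1.19 and 7.18 ± 0.68. The ranges overlapped for each of these genes.

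In the order of group means by DRaqL-SC3-seq, few neighbours stood apart by more than the larger SD of the pair. Later oocytes led primary ones in this sense for Dnmt1, Uhrf1 and Tet3, and for Dppa3 primary oocytes led later ones and later ones led fresh mESCs. For Tet1 the gap lay between LCM mESCs and non-neighboring granulosa cells. All other neighbours in the orders of the 9 genes lay within their spread.

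Against the 57 single granulosa cells by DRaqL-SC3-seq, oocytes were at least 2-fold higher in 8 members, all but Tet1, where 44% of genes were higher and 2.89% lower (81.4% either way among genes with a mean of at least 2). Dppa3 showed the widest gap, 10.47 and 2.00 in the means, with 40 of 44 oocytes above every granulosa cell, and no member was free of overlap (0.0808% of genes were). Dnmt1 had means of 8.89 and 4.18, Uhrf1 a difference of 4.00, Tet3 of 3.97 and Dnmt3b of 3.33. Dnmt3a differed by 2.11, Dnmt3l by 1.97 and Tet2 by 1.87. Tet1 differed by −0.03 in mean log2 but by −1.82 in the log2 ratio of summed reads. Granulosa libraries were shallower (162033 to 1429292 reads), and with every library thinned to 162033 reads the same 8 members were called and Dppa3 differed by 8.64. Without granulosa cells holding at least 10% of the oocyte-marker level of oocytes, again the same 8 were called, with 9.53 for Dppa3 and 5.61 for Dnmt1.

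Within granulosa cells most members varied from no read to levels met in oocytes. Dnmt1 was at 0, 4.48 and 10.36 in neighboring and 0, 3.86 and 9.65 in non-neighboring cells, with a read in 24 of 31 and 19 of 26. Dnmt3a had a read in 30 of 31 and 23 of 26 cells, more than any other member, at medians of 5.05 and 5.49. Uhrf1, a gene of replicating cells, was at 0, 4.89 and 9.10 and at 0, 3.26 and 9.43. Tet1 had a read in 13 of 31 and 15 of 26 cells, Tet2 in 15 and 9, and Tet3 in 20 and 18. Dnmt3l had a read in 9 and 7 cells only. In each case the neighboring and non-neighboring ranges overlapped.

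Dppa3 was the only member called higher in neighboring granulosa cells by every method set. It was at least 2-fold higher in neighboring than in non-neighboring cells in 8 of 8 method sets, by 1.33 to 4.41, as were 0.151% (20) of 13284 genes measured in all 8. The widest difference was in LCM-seq, a comparison method without DRaqL, with a read in 82.4% of 17 neighboring and 25% of 20 non-neighboring cells. Uhrf1 was called higher in 5 sets and Dnmt1 and Dnmt3a in 4 each, and 3.22% of genes were called higher in 4 or more. Tet1 was lower by 2-fold in 4 sets, as were 4.4% of genes, and ranged from −3.68 to 0.36. Dnmt3l, Dnmt3b, Tet2 and Tet3 were called higher in 1 set each, and Dnmt3b and Tet3 lower in 1 and Tet2 in 3.

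Oocyte markers moved with these differences. The 14 oocyte markers had a median sum of 2943 RPM in neighboring and 64.2 RPM in non-neighboring cells by DRaqL-SC3-seq, and 1545 and 29.8 RPM by LCM-seq. In the freshly dissociated cells of 1 mouse, split by whether they were attached to the oocyte, the medians were 157 and 155 RPM but the highest values 19611 and 2284 RPM. There the Dppa3 means differed by 1.33, while its lowest, median and highest values were 0, 2.24 and 10.03 in attached and 0, 2.41 and 7.66 in other cells. The study found mixed oocyte and granulosa profiles among these dissociated cells, more often in attached ones, and proposes that they are genuine. Such cells were not taken out here. In the 13 of 31 neighboring cells by DRaqL-SC3-seq with at least 3185 RPM of oocyte markers, Dppa3 had a mean of 5.02, against 0.89 in the others. In non-neighboring cells Dppa3 had a mean of 3.35 in the 3 at or above that level and 0.99 in the 23 below it. Between positions, the Dppa3 means were 5.02 and 3.35 at or above that level and 0.89 and 0.99 below it. Dppa3 is itself high in oocytes, so a split by oocyte markers is not independent of it. Dnmt1 had 6.19 and 2.89 in the 2 kinds of neighboring cell and Dnmt3l 2.16 and 0.26. Dnmt3a (5.49 and 5.26) and Uhrf1 (4.49 and 4.17) were nearly alike in them. The part of carried oocyte RNA in the Dppa3 difference was not tested. Nor was gap junction communication, which the study proposes for oocyte genes in neighboring cells.

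Dppa3 was also the member that separated the 2 kinds of granulosa pool, though it missed the adjusted threshold. The pools held 10 cells each, 7 from neighboring and 7 from non-neighboring positions, and were the only replicated groups, at 3811945 to 8259281 reads. Labels do not say whether pools came from separate mice, so p-values measure the spread between these pools. In pools, fewer cells of a type and less RNA per cell cannot be told apart. By edgeR's quasi-likelihood test with Benjamini-Hochberg adjustment, 0 of the 8 members with enough reads passed an adjusted p of 0.05, where 0.453% of 9704 genes (44, all higher in neighboring pools) did and 402 had an unadjusted p under 0.05. DESeq2 called 2 members, Dnmt3l and Dppa3, and 3.1% of 13421 genes.

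Dppa3 came closest. Neighboring pools were at 1.52, 5.10 and 6.99 (lowest, median, highest log2 (RPM+1)) and non-neighboring pools at 0, 0.84 and 1.26, and each neighboring pool lay above each non-neighboring one, which held for 0.384% of 19026 genes with a read. Its log2 fold change was 5.63 (SE 1.31), higher in neighboring pools, with an edgeR adjusted p of 0.069. Dnmt1 was at 5.72, 6.63 and 8.40 against 1.86, 5.13 and 6.52, a log2 fold change of 1.71 (SE 0.73, edgeR adjusted p = 0.998). Dnmt3l, left out for low reads, had 0, 3, 2, 0, 450, 198 and 181 reads in the neighboring pools and 1, 1, 0, 0, 0, 0 and 0 in the others, so 3 pools held nearly all. Log2 fold changes of the rest were 1.80 for Tet3, 1.68 for Tet2, 0.97 for Uhrf1, 0.10 for Dnmt3a, −0.15 for Dnmt3b and −0.67 for Tet1. In 7 further bulk granulosa libraries Dppa3 was at 0.33, 2.54 and 5.45. Oocyte markers again moved with position, at 856 to 8865 RPM in neighboring and 2.34 to 151 RPM in non-neighboring pools, with 9 of 14 called higher. Summed theca and interstitial markers ran from 0 to 2071 RPM and from 40.2 to 5239 RPM, and their part was not tested.

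**Figure D5:**
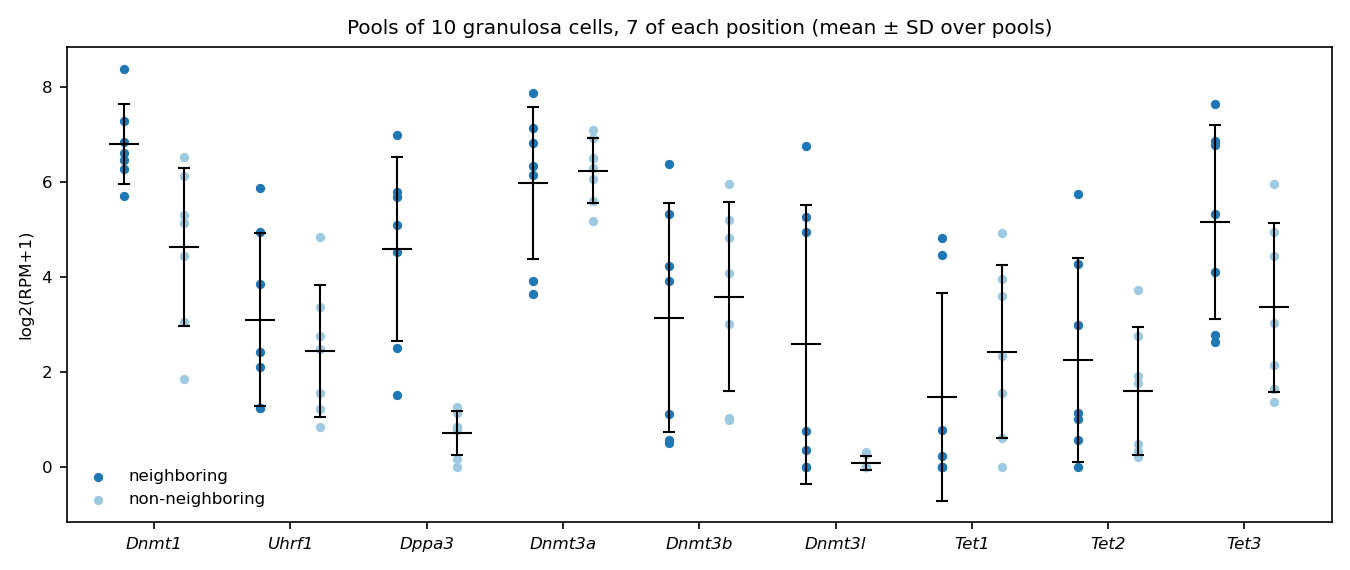
Log2 (RPM+1) of the 9 genes in pools of 10 cells, 7 of neighboring and 7 of non-neighboring position, with points for pools and bars for mean ± SD. The Dppa3 pools do not overlap (1.52 to 6.99 and 0 to 1.26), and the other genes do.

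Other genes of the pathway came from a list of 32 (readers of methylation, imprint keepers, base-excision repair and methyl-donor supply). Mat2a was left out because its symbol has more than 1 gene ID, and 30 or 31 of the rest were measured per method. Between stages 6 were higher and 1 lower by DRaqL-SC3-seq, 5 and 4 by SMART-Seq v4, 8 and 6 by DRaqL-SMART-Seq v4, and 9 and 5 in formalin-fixed sections, beside 21.2% and 9.88%, 24.8% and 11.9%, 26.3% and 16.6%, and 20.9% and 19% of all genes. The list's median difference of 0.27 by DRaqL-SC3-seq stood beside 0.04 for all genes, and in the other methods the 2 medians were 0.15 and 0.19, 0.11 and 0.12, and −0.03 and −0.01. Of 30 genes measured in all 4 methods, 3 (10%) were called higher in each, beside 10.8% of all genes. These were Zfp57, a zinc-finger protein that keeps imprints (2.07, 3.16, 4.41 and 3.24), Zbtb33 (Kaiso), a reader of methylated DNA (2.47, 2.00, 4.30 and 1.43), and Smug1, a uracil glycosylase (1.78, 1.67, 2.37 and 2.39). Ehmt2, a histone H3K9 methyltransferase, was lower by −1.54, −1.42, −1.82 and −0.85, called in 3 methods. Against LCM mESCs 12 were higher and 8 lower of 31 (34.1% and 10.3% of all genes), and against granulosa cells 18 and 2 of 31 (44% and 2.89%). In the pools 0 of 24 tested were called by edgeR.

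The genes whose log2 (RPM+1) varied most like each member over the 44 DRaqL-SC3-seq oocytes were drawn from 7220 genes with a mean of at least 4, which left out Dnmt3l, Tet1 and Tet2. These correlations share the stage and the library depth, count the paired primary libraries separately and carry no test. Dnmt1 varied most like Ssh2 (r = 0.87), Hsp90aa1 (0.84) and Ldhb (0.83), and within the 30 later oocytes these were 0.51, 0.49 and 0.67. Uhrf1 varied like Exo5, Trappc3 and Lsm14b (0.91 each), with 0.48, 0.57 and 0.76 within later oocytes. Tet3 varied like Phf3 (0.89), Pak1 (0.85) and Prickle1 (0.85), with 0.74, 0.50 and 0.64, and Dppa3 like Rabac1 (0.80) and Ooep (0.79), with 0.65 and 0.78. Ooep is, like Dppa3, a maternal-effect gene of the egg. Dnmt3a came nearest to Pxn and Ptges2 (0.71 each) and Pkp4 (0.70), with 0.62, 0.46 and 0.46. Dnmt3b matched Dennd5a at 0.72 and Axin1 and Grpel1 at 0.70 over both stages but at −0.17, 0.07 and −0.14 within later oocytes.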

How the data were processed

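The authors deposited counts of reads per gene for each library, made, per the submitters' processing notes, with fastp 0.20.0, cutadapt 1.16, HISAT2 2.1.0, HTSeq 0.10.0 and featureCounts 2.0.1 on GRCm38. Exon and junction counts were deposited likewise. Per the study's methods, SC3-seq and the libraries made with the SMART-Seq v4 kit module read 3′ ends, and Y-shaped adapter libraries read whole amplified cDNA. Levels of different genes were not compared. Counts were divided by the total over 22060 protein-coding genes and written as log2 (RPM+1). The members and gene lists were chosen with earlier results of these data known. Genes named beside a member are the 3 with the highest Pearson r over DRaqL-SC3-seq oocytes among genes with a mean of at least 4, and all members are named. For Dppa3 only 2 such genes are given, and the other is not reported here.

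Single cells of a group counted as 1 sample, since no label names the animal. Such groups were compared by the difference of mean log2 (RPM+1), called at 2-fold, with genes having a read in either group as the background. In the oocytes set against mESCs and granulosa cells, both stages had equal weight. Pools were tested with edgeR 4.0.16 (TMM, filterByExpr, quasi-likelihood F-test, two-sided, Benjamini-Hochberg at 0.05). In simulated pools with 9175 genes this test called 10.9% (of 46), 44.7% (of 47), 84.1% (of 44) and 100% (of 44) of genes changed by 2, 4, 6 and 8 on the log2 scale. It called 0 of 8994 unchanged ones. The changed genes were drawn at random over all levels, so these shares are not specific to genes at the levels of the members. The 3 granulosa libraries deposited apart as mixed profiles entered an alternative only. RefSeq promoter windows (GRCm38.p6) matched 8 of 9 members and were not found for Dppa3, and exons follow GENCODE. Alternatives were other pseudocounts, scalings and filters, DESeq2 1.42.0, a replicate block and leaving libraries out. Python 3.11.15 and R 4.3.3 were used.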

Additional observations from a re-analysis of the deposited data

Results flagged for a closer look

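Of 81 combinations of a member and a group of 4 to 10 libraries, checked for a single distant value (Dixon's test at the 95% level, where chance flags about 1 in 20), 10 held one, all on the log2 (RPM+1) scale. In SMART-Seq v4 primary oocytes, Dnmt3a was at 4.05 in replicate 7 and at 6.07 to 7.42 in the others. In DRaqL-SMART-Seq v4, Dnmt1 was at 0 in primary replicate 2 (others 6.11 to 9.46), Dnmt3a at 7.71 in primary replicate 1 (others 6.00 to 6.53), and Tet1 at 0 in later replicate 8 (others 2.50 to 4.55). In formalin-fixed sections, Dnmt3l was at 0 in primary replicate 5 (others 1.66 to 2.18). Later replicate 3 of the formalin-fixed oocytes stood apart in 3 genes, with Dnmt3a at 2.65 (others 7.19 to 8.31), Dnmt3b at 0 (others 4.31 to 5.85) and Tet3 at 11.53 (others 10.59 to 10.97). Of the LCM oocytes of 1 mouse, Dnmt3a was at 6.31 in replicate 8 (others 8.07 to 8.35) and Dnmt3l at 0 in replicate 3 (others 3.70 to 7.02).

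Outside the protein-coding genes, the annotated copy Dppa3-ps had 8244 reads over the 16 serial oocyte sections, 4.75% of the reads of both genes and present in 16 of 16 libraries. It had 41 reads in the neighboring and 0 in the non-neighboring pools.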

How the results depend on the processing

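Members past 2-fold between stages numbered 5 to 6 by DRaqL-SC3-seq and 5 to 7 by DRaqL-SMART-Seq v4 over the alternatives without spike-ins. Scaled to ERCC spike-ins, 9 members passed by SMART-Seq v4, 9 by DRaqL-SMART-Seq v4 and 8 in formalin-fixed sections, as did 72.8%, 88.8% and 62.3% of all genes with a mean of at least 2, since that scaling moved the median gene by more than 2-fold. Without DRaqL-SMART-Seq v4 primary replicate 2 the Dnmt1 difference was 3.72, and without formalin-fixed later replicate 3 it was 2.89. In the pools, DESeq2 called 2 members, and edgeR called 0 with RLE scaling (43 genes in all), without a filter (56) and without each replicate in turn (0 in each, 5 to 34 genes). Of 558 alternative values of single members, 519 counted as the same, 38 moved by more than the spread between libraries, 1 became stronger and 0 turned direction after a call. For single cells, the same meant a move within that spread. For pools it meant only that the call at the adjusted threshold was unchanged, so pool values could move far. With the replicate block, for example, the Tet2 log2 fold change went from 1.68 to −0.59. Pool numbers did not pair the pools (correlations of −0.0013 to 0.18, 2 of 7 over 0.1, and 3 of 7 highest with their own number). The replicate block called 0 members and 3 genes, and Dppa3 had a log2 fold change of 5.31 (edgeR adjusted p = 0.296). Averaging the paired profiles, the spike-in scaling and leaving out the named oocyte libraries were chosen after seeing the data. Counts were 3 to 5 by SMART-Seq v4 and 4 to 6 in formalin-fixed sections without spike-ins, 7 to 9 against LCM mESCs, 6 to 8 against granulosa cells and 2 to 3 between mESCs. Depth limits what the low genes Tet1 and Tet2 and the granulosa libraries can show.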
